A study of Mus musculus with 12 samples.

Results

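The 9 names considered here were chosen by their known roles in insulin and fasting signalling in the liver: Insr, Irs1, Irs2, Igfbp1, Foxo1, Foxo3, Ppargc1a, Ppargc1b and Creb3l3. Earlier results of these data were known when they were chosen, so counts of them set against all tested genes are descriptions only. Of these names, 8 had a row of their own among the 21490 gene symbols of the nascent RNA table. No row carried the name Foxo3. The rows Foxo3a and Fkhr2 lie on the annotated Foxo3 gene, overlap each other over 29297 bp and so share reads, and they are described beside the 8 genes without being counted. All 8 genes were among the 6284 symbols tested, which are those above 6 reads per base pair (rpbp) in at least 1 library. Ppargc1a passed only through 1 library, as did 12.2% of the tested symbols.

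Nascent-Seq sequences RNA that is still attached to chromatin, so its signal follows transcription rather than the store of messenger RNA. The livers came from wild-type male C57BL/6 mice, adults aged 3 to 6 months, kept under 12 hr of light and 12 hr of darkness. They were collected every 4 hr from ZT0 to ZT20 (zeitgeber time, in hours after lights on, so that ZT12 is lights off), with 2 libraries for each of the 6 times. There was no fasted, refed or insulin-treated group, and the feeding state of the animals is not given in the sources used here, so the only comparisons are among times of day. No source says whether a library held 1 liver or several, so p-values measure the spread between these libraries.

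Insulin binds the receptor encoded by Insr, which phosphorylates the docking proteins Irs1 and Irs2 and so switches on phosphatidylinositol 3-kinase and AKT. AKT in turn keeps FOXO transcription factors out of the nucleus. When insulin falls, FOXO proteins enter the nucleus and drive genes such as Igfbp1, Irs2 and those of glucose production, while glucagon acts through cAMP and CREB to induce the coactivator encoded by Ppargc1a. Creb3l3 encodes a liver transcription factor that is cut from the endoplasmic reticulum membrane and acts on lipid and ketone genes during fasting.

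Summed over all symbols, the libraries held between 118342 and 160545 rpbp, and the median log2 deviation of the tested genes from their mean over the libraries ranged from -0.205 in ZT16 replicate 2 to 0.130 in ZT0 replicate 2. Both libraries of ZT8 and ZT20 were sequenced in 2 lanes and the others in 1, so lanes and time points cannot be told apart outside the 4 time points of 1 lane. Hepatocyte markers, 7 of 8 of which had a row, summed to between 721 and 1690 rpbp. Kupffer cell markers summed to between 22.5 rpbp in ZT8 replicate 2 and 75.1 rpbp in ZT8 replicate 1, endothelial markers to 14 to 28, stellate markers to 9.7 to 16.4, lymphocyte markers to 2.8 to 10.6 and cholangiocyte markers to 1 to 2.5. No marker was at 0 in all libraries. In whole liver, a smaller number of cells of one type and less nascent RNA per cell cannot be told apart, and the part of other cell types in the results was not tested.

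The signal is divided by exon length, which lets levels of genes be set side by side, although rows on 1 gene can still differ: Foxo3a and Fkhr2, both on Foxo3, averaged 16.3 and 27.6 rpbp. Averaged over the 12 libraries, Creb3l3 had the highest level, 42.95 rpbp ± 8.73 (SD, n = 12), and it was above the next gene in 12 of 12 libraries. Irs1 (19.2 ± 7.12), Insr (18.65 ± 2.84), Igfbp1 (14.8 ± 17.2), Foxo1 (9.475 ± 4.07), Irs2 (7.88 ± 5.50) and Ppargc1b (5.61 ± 2.31) followed. Neighbours among these exchanged places between libraries: Irs1 was above Insr in 8 of 12, Insr above Igfbp1 in 9, Igfbp1 above Foxo1 in 8, Foxo1 above Irs2 in 8 and Irs2 above Ppargc1b in 7. Ppargc1a was lowest, at 3.13 ± 1.56 rpbp, and it was below Ppargc1b in 12 of 12 libraries. Creb3l3 stood at the 95.8 percentile of the levels of tested genes and Ppargc1a at the 2.13 percentile.

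**Figure D1:**
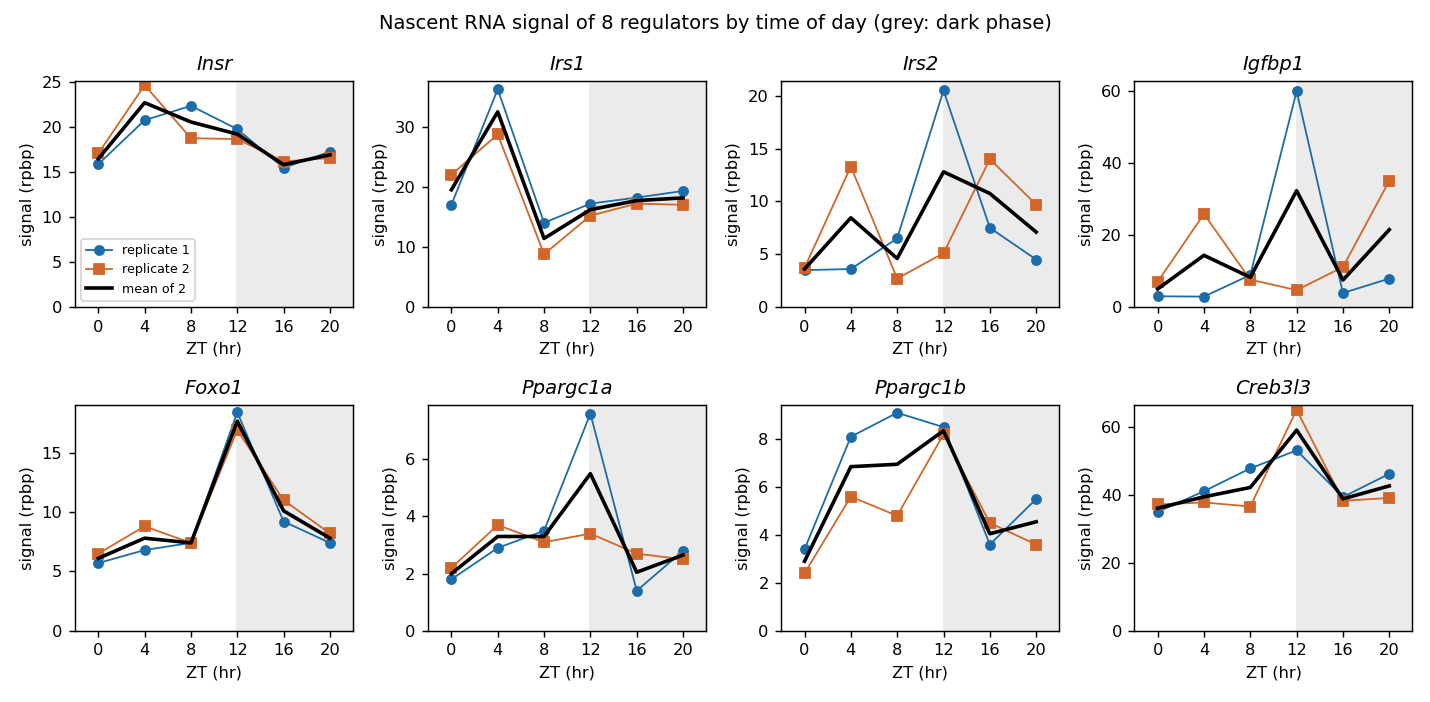
Nascent RNA signal in reads per base pair (y axis, from 0) against zeitgeber time in hours (x axis) for the 8 genes, with each replicate as points joined by a thin line, the mean of the 2 replicates as a thick line and the dark phase in grey. Both replicates of Foxo1 rise to 18.4 and 16.9 rpbp at ZT12, while Irs2 and Igfbp1 peak at ZT12 in replicate 1 and at other times in replicate 2.

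Insr, the insulin receptor gene (chr8:3150922-3279617 on mm9/NCBIM37, minus strand, protein-coding like the other members), read 15.9, 20.8, 22.4, 19.8, 15.5 and 17.3 rpbp from ZT0 to ZT20 in replicate 1. Replicate 2 read 17.1, 24.7, 18.8, 18.7, 16.2 and 16.6 rpbp. The values at ZT4, ZT8 and ZT12 were all above those at ZT16, ZT20 and ZT0. Its 24-hr component (F24, the share of the variance of the 12 values explained by a 24-hr cosine) was 0.638, with a phase of 6.47 hr after lights on. The one-sided permutation p was 0.00815 (adjusted 0.152). Its highest value was 1.59 times the lowest, just over the limit of 1.5 for the rhythmic call, and the replicates lay close together, with an SD within time points of 0.11 on the log2 scale, at the 3.06 percentile of tested genes. Without ZT4 replicate 2, which holds the highest value, F24 was 0.696 with a permutation p of 0.0101, but the ratio no longer passed the limit. Between time-point means the ratio was 1.44, also under it. Removal of a trend with exon GC content also ended the call (F24 0.334, permutation p = 0.164); that trend, the median log2 deviation of genes in the highest minus the lowest GC bin, was -1.21 in ZT8 replicate 2 and -0.598 to 0.556 in the other libraries.

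Irs1, the docking protein that couples the receptor to phosphatidylinositol 3-kinase (chr1:82233185-82287991, minus strand), had another shape. Replicate 1 read 17, 36.2, 14, 17.2, 18.2 and 19.3 rpbp and replicate 2 read 22, 28.7, 8.8, 15.2, 17.2 and 17. Both ZT4 values were above the other 10 and both ZT8 values were below them, a fall from a mean of 32.45 to 11.4 rpbp within 4 hr. ZT8 was sequenced in 2 lanes and ZT4 in 1, so time and lanes cannot be told apart in this fall. Its 24-hr component was weak, with an F24 of 0.294 (permutation p = 0.215). In the moderated F-test of limma over the 6 time points, Irs1 passed with an adjusted p of 0.0478. That call did not survive the removal of single libraries: it was lost in 10 of 12 cases, with limma adjusted p-values between 0.0553 without ZT16 replicate 2 and 0.169 without ZT4 replicate 1. Both ZT4 values above the other 10 was a pattern of 3.17% of the tested genes. Over the 4 time points of 1 lane, which leave out ZT8, the limma F-test did not call Irs1 (adjusted p = 0.119).

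The sequence before the start of Irs1 is shown because it holds 2 kinds of motif at once. It covers the 250 bases before the start given in the table (chr1:82287992-82288241 on NCBIM37, minus strand), outside annotated exons, and its capitals mark an E-box (CACGTG, the site of clock factors) that overlaps an insulin response element (CAAAACA, here as its reverse complement TGTTTTG) by 2 bases, and a second such element nearer the start.
Irs1: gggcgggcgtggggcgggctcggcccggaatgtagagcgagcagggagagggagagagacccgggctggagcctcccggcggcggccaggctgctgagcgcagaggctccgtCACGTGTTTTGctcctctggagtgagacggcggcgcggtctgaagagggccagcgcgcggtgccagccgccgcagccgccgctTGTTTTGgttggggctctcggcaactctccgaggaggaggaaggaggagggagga

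The E-box lies 138 to 133 bases before the start, and the insulin response elements lie 134 to 128 and 55 to 49 bases before it. The motifs searched on both strands were CACGTG, TGACGTCA (the cAMP response element), GTAAACA (a FOXO site) and CAAAACA. Among the 5011 tested genes with a known window of this length, 8.92% held CACGTG, 2.89% TGACGTCA, 2.39% GTAAACA and 3.83% CAAAACA. A match is a string of letters and no evidence of binding. Ppargc1b was not searched. Of the others, only Irs1, Igfbp1 and Ppargc1a held a match, and none held GTAAACA.

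Irs2 and Igfbp1 are classic FOXO targets that insulin represses, and they were the members whose replicates differed most. Irs2 (chr8:10986964-11008430, minus strand) read 3.5, 3.6, 6.5, 20.5, 7.5 and 4.5 rpbp in replicate 1 and 3.7, 13.3, 2.7, 5.1, 14 and 9.7 rpbp in replicate 2. Igfbp1, which encodes a liver-secreted protein that binds insulin-like growth factors (chr11:7097783-7102538, plus strand), read 3, 2.9, 8.9, 59.8, 3.9 and 7.9 rpbp in replicate 1 and 7, 25.8, 7.6, 4.7, 11.1 and 35 rpbp in replicate 2. At ZT12 the replicates of Igfbp1 stood 12.7-fold apart and those of Irs2 4.02-fold, with replicate 1 the higher, and at ZT4 they stood 8.90-fold and 3.69-fold apart, with replicate 2 the higher. Their SDs within time points were at the 99.9 and 98.2 percentiles of tested genes.

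The 250 bases before the start of Igfbp1 (chr11:7097533-7097782, plus strand) are shown for the insulin response element that this gene is known for, in capitals 101 to 95 bases before the start.
Igfbp1: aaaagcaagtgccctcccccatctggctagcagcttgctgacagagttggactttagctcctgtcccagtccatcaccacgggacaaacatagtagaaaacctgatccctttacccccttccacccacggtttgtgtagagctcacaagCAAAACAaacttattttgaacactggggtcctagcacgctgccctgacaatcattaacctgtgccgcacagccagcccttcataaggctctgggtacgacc

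Neither gene had a 24-hr component beyond the spread of its values. F24 was 0.201 for Irs2 (permutation p = 0.367) and 0.0668 for Igfbp1 (permutation p = 0.775), and time points held 37.6% and 33.2% of their variance on the linear scale. With 2 libraries per time point, a sizeable share arises without any effect of time, so these shares alone do not show one. Taken alone, replicate 1 of Irs2 met the rhythmic limits (F24 0.636, phase 12.3 hr, exact permutation p = 0.0167, the smallest that 720 orders of 6 values allow), whereas replicate 2 had an F24 of 0.130 (exact permutation p = 0.75). In Igfbp1 the time of the highest value was ZT12 in replicate 1 and ZT20 in replicate 2.

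The replicate differences of the pair ran together, a relation that was singled out after the values were seen. The log2 difference of replicate 1 minus replicate 2 had the same sign in Irs2 and Igfbp1 at 6 of 6 time points and the same order (Pearson's r = 0.950, exact permutation p = 0.00139, the smallest possible; Spearman's rho = 1, exact permutation p = 0.00278, n = 6). Over the 28 pairs of genes computed, the adjusted exact permutation p was 0.0389 for r and 0.0778 for rho, so the relation passed the correction for r and missed it for rho. Without the 2 time points farthest from the median of Irs2, r was 0.938. The differences of Foxo1 were small, from -0.33 to 0.12 on the log2 scale, and they also followed those of Irs2 (r = 0.951, exact permutation p = 0.00556, adjusted 0.0778) and Igfbp1 (r = 0.915, exact permutation p = 0.00972, adjusted 0.0907), but r fell to 0.712 and 0.695 without the 2 farthest time points. Of the 28 pairs, 4 had an unadjusted exact permutation p for r under 0.05. Libraries of 1 time point and replicate are shared by all genes, and the part of the library in this relation was not tested.

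**Figure D2:**
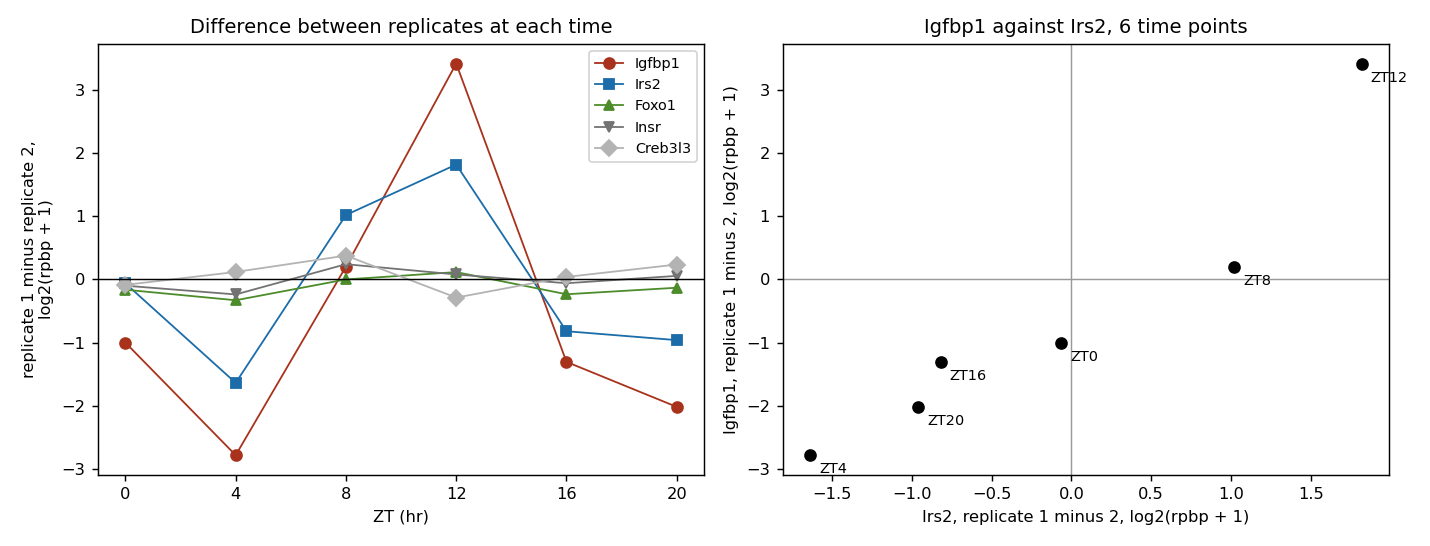
Left, replicate 1 minus replicate 2 on the log2(rpbp + 1) scale (y axis) against zeitgeber time in hours (x axis) for 5 genes. Right, the same difference of Igfbp1 (y axis) against that of Irs2 (x axis), with 1 point per time point; ZT12 lies at the upper right (1.82 and 3.42) and ZT4 at the lower left (-1.64 and -2.78).

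By likeness over the 12 libraries (Pearson's r of log2(rpbp + 1), a description across libraries that all genes share), the genes closest to Irs2 were AK014677 (r = 0.923), BC052524 (0.887) and Agtr1a (0.846). Those closest to Igfbp1 were BC052524 (0.847), Ccbp2 (0.838) and Tmem140 (0.791), so BC052524 stood high on both lists. Genes like Irs2 and Igfbp1 were looked up after the values of the pair were seen. AK162519, which overlaps Irs2 over 581 bp, read 0.4 to 2.8 rpbp and was also highest in ZT12 replicate 1, and Igfbp3, 3557 bp from Igfbp1, read 0.2 to 1.2 rpbp, below every value of Igfbp1.

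Foxo1, the FOXO factor that insulin restrains in hepatocytes (chr3:52072296-52153460, plus strand), changed most clearly with time of day. It read 5.7, 6.8, 7.4, 18.4, 9.2 and 7.4 rpbp in replicate 1 and 6.5, 8.8, 7.4, 16.9, 11 and 8.2 rpbp in replicate 2. Both ZT12 values were above the other 10, and ZT16 held the next highest pair. The mean was 6.1 rpbp ± 0.566 at ZT0 and 17.65 ± 1.06 at ZT12 (SD, n = 2). F24 was 0.591 with a phase of 12.7 hr (permutation p = 0.00200, adjusted 0.0964), just under the limit of 0.6 for a strong rhythm. Foxo1 kept the rhythmic call with each library left out in turn (F24 0.506 to 0.671). Time points held 97.0% of its variance, and its replicates were close, with an SD within time points at the 8.004 percentile.

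Foxo1 passed the limma F-test over the 6 time points (adjusted p = 0.0174) and the one restricted to the 4 time points of 1 lane (adjusted p = 0.0143), where lanes do not differ. The first call was lost without ZT12 replicate 1 (limma adjusted p = 0.0859) or ZT12 replicate 2 (0.0687), and the second also without ZT0 replicate 1 (0.0578). Its closest genes over the 12 libraries were Ndel1 (r = 0.977), apo (0.971) and 1110032O16Rik (0.955). Their phases lay between 12.3 and 13.1 hr. Because these genes were picked by likeness to Foxo1 over the same libraries, phases near its own were fixed in advance.

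The Foxo3 gene was read through the overlapping rows Foxo3a and Fkhr2 (Foxo3a lies at chr10:41905592-41996548, minus strand), which were matched to it through RefSeq synonyms. Foxo3a read 11.9, 18.7, 15.8, 27.1, 16 and 15.2 rpbp in replicate 1 and 13.7, 13.2, 12.8, 19.6, 18.7 and 12.9 rpbp in replicate 2. As in Foxo1, both ZT12 values were above the other 10, and the phase was 12.3 hr, but F24 was 0.434 and the permutation p was 0.0544 (0.518 and 0.0207 with the exon GC trend removed). Fkhr2, which covers the 5′ end of the gene, read 22 to 42 rpbp and met the rhythmic limits (F24 0.560, phase 12.1 hr, permutation p = 0.0203). The ZT0 to ZT12 differences were -0.81 ± 0.24 (log2 ± SE) for Foxo3a and -0.72 ± 0.22 for Fkhr2, with limma adjusted p-values of 0.0895 and 0.0995. The rows share reads and are not independent.

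**Figure D3:**
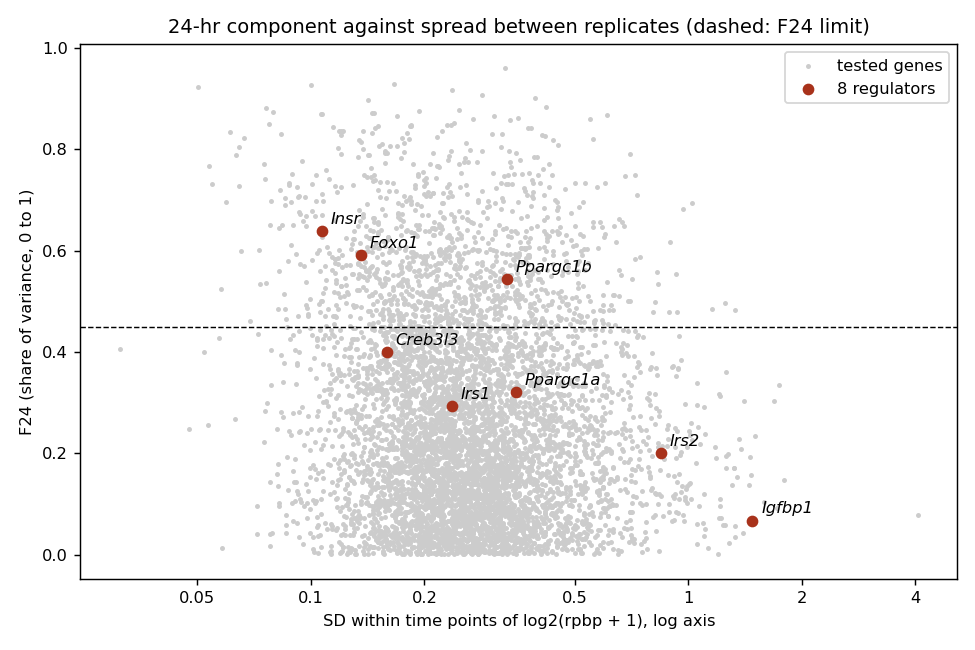
F24, the share of variance in the 24-hr component (y axis, 0 to 1), against the SD within time points of log2(rpbp + 1) on a log axis (x axis), with the tested genes as grey points, the 8 genes in red and the F24 limit of 0.45 as a dashed line. Insr and Foxo1 lie at the left with close replicates and F24 of 0.638 and 0.591, and Igfbp1 at the far right with an F24 of 0.0668.

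Ppargc1b encodes PGC-1β, a coactivator of mitochondrial and lipid synthesis genes. It read 3.4, 8.1, 9.1, 8.5, 3.6 and 5.5 rpbp in replicate 1 and 2.4, 5.6, 4.8, 8.2, 4.5 and 3.6 rpbp in replicate 2. In each replicate the 3 values from ZT4 to ZT12 were above the 3 from ZT16 to ZT0, though the replicates overlapped when put together. F24 was 0.544 with a phase of 9.29 hr, and the permutation p of 0.0407 (adjusted 0.279) was close to the limit. The rhythmic call was lost in 8 of 12 cases when a library was left out, with permutation p-values of 0.0585 for ZT4 replicate 2 and 0.0957 for ZT8 replicate 1 at the ends. It was also lost with the lanes as a block (0.0522). The other libraries were ZT0 replicate 1 (0.0747), ZT12 replicate 1 (0.0760), ZT0 replicate 2 (0.0811), ZT12 replicate 2 (0.0767), ZT16 replicate 2 (0.0594) and ZT20 replicate 2 (0.0714). Its closest genes were Galm (r = 0.890), Igfbp4 (0.879) and 4833426J09Rik (0.860).

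Ppargc1a encodes PGC-1α, the coactivator of glucose production genes that glucagon and cAMP induce (chr5:51848893-51945100, minus strand). Its signal was low, at 1.8, 2.9, 3.5, 7.6, 1.4 and 2.8 rpbp in replicate 1 and 2.2, 3.7, 3.1, 3.4, 2.7 and 2.5 rpbp in replicate 2. The single high value was ZT12 replicate 1, the library in which Igfbp1 and Irs2 were also highest, and without it the remaining values spanned 1.4 to 3.7 rpbp. F24 was 0.321 (permutation p = 0.1002). The stretch 250 to 61 bases before its start (chr5:51945161-51945350, minus strand), the longest run of the window outside annotated exons, is shown for the cAMP response element that links this gene to glucagon, in capitals 144 to 137 bases before the start.
Ppargc1a: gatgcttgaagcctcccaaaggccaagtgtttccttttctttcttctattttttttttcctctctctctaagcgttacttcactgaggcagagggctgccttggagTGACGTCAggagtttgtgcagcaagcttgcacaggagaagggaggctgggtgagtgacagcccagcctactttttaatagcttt

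Creb3l3, the gene of highest level among the 8 (chr10:80547078-80561617, minus strand), read 34.9, 41, 47.7, 53, 39.3 and 46.1 rpbp in replicate 1 and 37.1, 37.7, 36.5, 64.9, 38.2 and 39 rpbp in replicate 2. Both ZT12 values were above the other 10, as in Foxo1, a pattern of 7.67% of the tested genes. The rest of the day was nearly flat in replicate 2, at 36.5 to 39 rpbp. F24 was 0.3997 with a phase of 12.0 hr (permutation p = 0.0766), short of the call. It met the rhythmic limits when the libraries were rescaled to equal medians (F24 0.626, permutation p = 0.00693) and without ZT8 replicate 2 (0.541, permutation p = 0.0240) or ZT16 replicate 2 (0.498, permutation p = 0.0425), and when the exon GC trend was removed (0.535, permutation p = 0.0380).

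Counted over the 8 genes, 3 met the rhythmic limits (Foxo1, Insr and Ppargc1b), against a background of 15.2% of the tested genes. None met the limits for a strong rhythm, against 6.38%, nor had an adjusted permutation p under 0.05, against 0.7%. The median F24 was 0.360 over the 8 genes and 0.222 over all tested genes. The limma F-test over the 6 time points called 2 of 8 (Foxo1 and Irs1), against 7.65%, and 3 of 8 at an unadjusted p under 0.05, against 27.6%. Over the 4 time points of 1 lane it called Foxo1 alone, against 3.34%, and 5 of 8 at an unadjusted p under 0.05, against 20.2%. Ppargc1a, which entered the test through the high value of ZT12 replicate 1, is 1 of these 5; among the 7 genes above 6 rpbp in more than 1 library the count was 4, against 20.8% of such genes.

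The time points that lie 12 hr apart were then compared pair by pair. From ZT0 to ZT12, the signal rose in Foxo1 and Ppargc1b, 2 of 8 genes, against 2.85% of tested genes higher at ZT12 and 4.44% in both directions. Foxo1 differed by -1.39 ± 0.19 (log2 of rpbp + 1, ZT0 minus ZT12, ± SE), a fold of 2.63, with a limma adjusted p of 0.00412. Ppargc1b went from a mean of 2.9 to 8.35 rpbp, a difference of -1.27 ± 0.30 with a limma adjusted p of 0.0410. Creb3l3 (-0.69 ± 0.20, limma adjusted p = 0.0867) and Ppargc1a (-1.04 ± 0.31, adjusted p = 0.0929) passed without adjustment only, making 4 of 8 at an unadjusted p under 0.05 against 18.4%. Ppargc1a had been tested only because of its ZT12 replicate 1 value, without which its difference was -0.56, and the count over the 7 genes above 6 rpbp in more than 1 library was 3, against 18.7% of such genes.

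In Igfbp1 (-1.72 ± 1.14) and Irs2 (-1.32 ± 0.67) the ZT0 to ZT12 differences had wide errors, with limma adjusted p-values of 0.474 and 0.333, and without ZT12 replicate 1 they were -0.01 and -0.41. Insr (-0.21, 95% interval -0.61 to 0.19) and Irs1 (0.24, -0.29 to 0.78) showed no difference that could be detected with 2 replicates. The sign was negative, that is higher at ZT12, in 7 of 8 genes, against 52.8% of the tested genes, and the highest mean was at ZT12 in 6 of 8, against 27.5%. These counts, and the median over the 8 genes given below, include Ppargc1a, which was tested only because of its ZT12 replicate 1 value. Without ZT12 replicate 1 the highest mean was at ZT12 in 4 of 8 (Creb3l3, Foxo1, Ppargc1a and Ppargc1b), against 31% of the tested genes. Ppargc1a exceeded 6 rpbp in that library alone, so without it the gene would not have been tested. Its remaining ZT12 value was 3.4 rpbp, against a mean of 3.3 at ZT4. The median difference was -1.16 over the 8 genes and -0.03 over all tested genes, and without ZT12 replicate 1 these were -0.48 and -0.07. Without ZT0 replicate 1 neither call remained: the limma adjusted p was 0.0569 for Foxo1 and 0.147 for Ppargc1b, and the tested genes called fell from 279 to 26. Ppargc1b also missed the threshold without ZT0 replicate 2 (0.192), ZT12 replicate 1 (0.169), ZT12 replicate 2 (0.148), either ZT4 library (0.0527 each) or either ZT20 library (0.0552 each).

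Between ZT4 and ZT16, limma called none of the 8 genes after adjustment, against 2.1% of the tested genes, and 2 of 8 at an unadjusted p under 0.05, against 19.4%. These were Irs1, with means of 32.45 and 17.7 rpbp (0.83 ± 0.24, limma adjusted p = 0.112), and Insr, with 22.75 and 15.85 rpbp (0.49 ± 0.18, limma adjusted p = 0.186). Between ZT8 and ZT20, limma called none after adjustment, against 1.58%, and Irs1 alone at an unadjusted p under 0.05, against 12.6%. Irs1 was lower at ZT8 than at ZT20 (11.4 and 18.15 rpbp, -0.66 ± 0.24, limma adjusted p = 0.263), the reverse of its order between ZT4 and ZT16. Foxo1 and Creb3l3, which stood apart at ZT12, differed little between ZT8 and ZT20, with 95% intervals of -0.49 to 0.36 and -0.47 to 0.43 on the log2 scale.

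**Figure D4:**
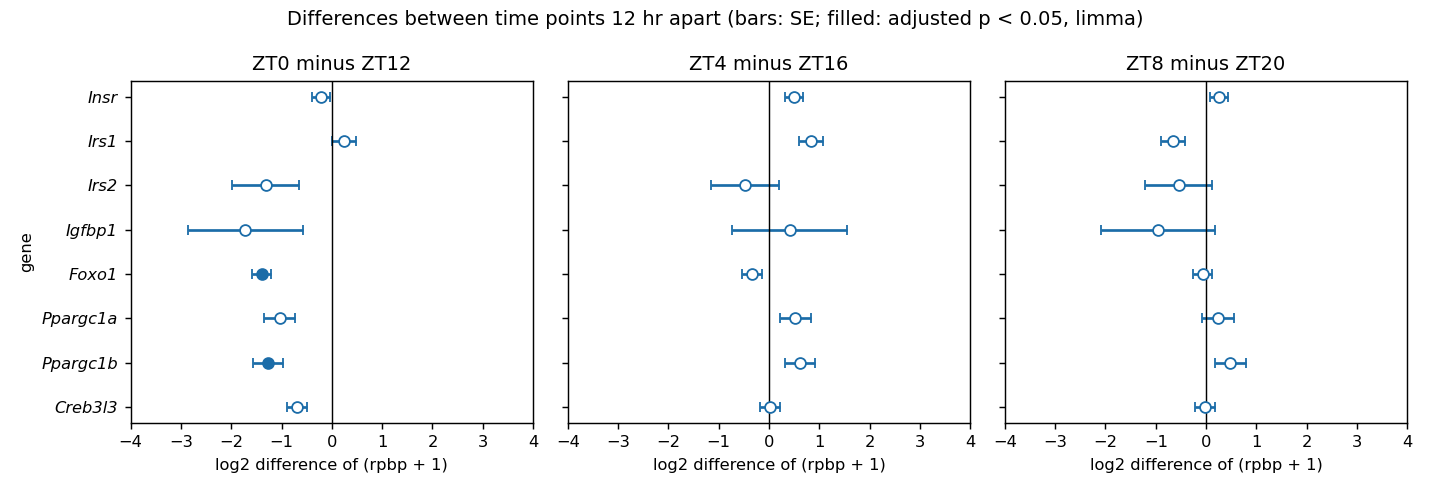
Differences of mean log2(rpbp + 1) between time points 12 hr apart (x axis) for the 8 genes (y axis), with bars for the standard error and filled circles for limma adjusted p-values under 0.05. Foxo1 and Ppargc1b lie left of 0 and are filled in the ZT0 minus ZT12 panel, and no circle is filled in the other panels.

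The genes around these regulators were taken from 6 lists of pathway genes, with 121 names, of which 117 had a row and 73 were tested. Of the 73, 16 met the rhythmic limits (21.9%, against 15.2% of all tested genes), 11 passed the limma F-test (15.1%, against 7.65%), and 11 differed between ZT0 and ZT12 (15.1%, against 4.44%), 7 of them higher at ZT12 (9.59%, against 2.85%). Of the 73, 8 had passed the filter through 1 library only, Pik3cb, Pde4b and Pdk4 among them. Over the other 65 the counts were 13 rhythmic (against 15.7% of the tested genes above 6 rpbp in more than 1 library), 9 past the F-test (7.95%) and 10 that differed between ZT0 and ZT12 (4.78%). None of the 73 had an adjusted permutation p under 0.05. Values given for them are means of 2 libraries, and single libraries were not left out for them. In insulin signal transduction, none of 13 tested genes passed the limma F-test after adjustment, against 7.65% of all tested genes. In this list 3 were rhythmic (23.1%, against 15.2%). They were Frap1, an older symbol of the growth kinase Mtor (F24 0.819, phase 4.93 hr), the kinase gene Sgk2 (0.606, 3.05 hr) and Pik3cb, a catalytic subunit of phosphatidylinositol 3-kinase (0.528, 6.13 hr), which passed the filter only through ZT8 replicate 2 (6.6 rpbp). All 3 phases fell in the light, but the share of all rhythmic genes with such phases was not computed. The library that let Pik3cb into the test was itself one of the light.

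Among inhibitors of insulin signalling, 1 of 9 was rhythmic (11.1%, against 15.2% of all tested genes). The same gene alone passed the limma F-test (against 7.65%). Socs3, which blocks cytokine and insulin receptor signalling, rose from a mean of 1.4 rpbp at ZT0 to 6.45 at ZT12 and 8.55 at ZT16 (phase 13.9 hr, limma F-test adjusted p = 0.0103, ZT0 against ZT12 adjusted p = 0.0202). Ptprf, a phosphatase in this list, was also among the 3 genes most like Irs1 over the 12 libraries (r = 0.892), with U76754 (0.892) and Irgm (0.880). The genes most like Insr were Abcg8 (0.938), Eif2ak1 (0.937) and Abcg5 (0.907). Abcg5 and Abcg8 encode partner subunits of the transporter that exports sterols into bile.

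Among glucagon, cAMP and energy sensing genes, 3 of 16 were rhythmic (18.75%, against 15.2% of all tested genes) and 3 passed the F-test (18.75%, against 7.65%). Pde4b, which breaks down cAMP, was highest at ZT4 (6.2 rpbp) and lowest at ZT16 (1.15; F24 0.762, phase 3.81 hr, limma F-test adjusted p = 0.0498), and only ZT4 replicate 2, at 7.2 rpbp, was above the filter. Pde4d averaged 6.35 rpbp at ZT0, 2.75 at ZT4, 7.1 at ZT8 and 2.25 at ZT12, so its course was not a steady fall. Its highest mean was at ZT8, which was sequenced in 2 lanes. The ZT0 to ZT12 difference had a limma adjusted p of 0.0071 and the limma F-test one of 0.00262. Pde4d was not called rhythmic (F24 0.366). Snf1lk, an older symbol of Sik1, a kinase gene that CREB induces, was highest at ZT12 (14.55 rpbp) and lowest at ZT8 (2.8; limma F-test adjusted p = 0.0484). Crem, a CREB family factor (F24 0.545, phase 21.7 hr), and Prkag2, a subunit of AMP-activated kinase (0.508, 13.7 hr), were rhythmic. Prkag2 also rose from ZT0 to ZT12 (limma adjusted p = 0.0466).

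Among partners of FOXO and PGC-1, 5 of 15 were rhythmic (33.3%, against 15.2% of all tested genes) and 1 passed the F-test (6.67%, against 7.65%). Ppara, the fatty acid receptor that PGC-1 coactivates, went from 38.25 rpbp at ZT0 to 90.65 at ZT8 (F24 0.593, phase 8.08 hr). The corepressor gene Nrip1 (0.633, 0.203 hr), the Mediator subunit gene Med1 (0.614, 7.48 hr), Cebpa (0.567, 6.19 hr) and Foxa2 (0.518, 2.12 hr) were the others. Cebpb, a factor of the fasting response, was highest at ZT12 with 33.65 rpbp, against 12.25 at ZT0 and 5.5 at ZT20 (limma F-test adjusted p = 0.0124). From ZT0 to ZT12 Cebpb (limma adjusted p = 0.0456) and Klf15 (0.0495), a factor that glucocorticoids induce, rose and Foxa2 (0.0390) fell.

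Fasting output genes, the enzymes and factors that fasting induces in liver, had 4 of 10 tested genes rhythmic (40%, against 15.2% of all tested genes). Past the F-test were 5 (50%, against 7.65%). Pck1, the gluconeogenic enzyme that FOXO1 and PGC-1α drive, read 64.45 rpbp at ZT0 and 642.55 at ZT12 (limma F-test adjusted p = 0.0172, ZT0 against ZT12 adjusted p = 0.00412). Pck1 was not called rhythmic (F24 0.273, permutation p = 0.237). G6pc, in the same list, passed neither call. It averaged 115.7 rpbp at ZT0 and 133.75 at ZT12 (limma adjusted p = 0.935), with ZT12 replicates of 215.2 and 52.3 rpbp. Cpt1a, which carries fatty acids into mitochondria, rose from 15.35 rpbp at ZT0 to 35.8 at ZT12 (F24 0.833, phase 8.35 hr, limma adjusted p = 0.0143). Angptl4, an inhibitor of lipoprotein lipase, rose from 6.2 to 30.4 rpbp (0.599, 11.6 hr, limma adjusted p = 0.0219). Pdk4, which shuts off glucose oxidation, ran the other way, at 4.95 rpbp at ZT0 and 0.25 at ZT12 (0.716, 23.6 hr), although both Pdk4 and Pck1 are listed as fasting genes; its single value above the filter was ZT0 replicate 2, at 6.4 rpbp. Lpin1 was rhythmic (0.496, 13.3 hr), with ZT12 values of 85.7 and 62.4 rpbp but ZT16 values of 4.3 and 103 rpbp in replicates 1 and 2. Tat (adjusted p = 0.0482) and Txnip (0.0357) passed the limma F-test. Of the 10 tested genes of this list, 4 differed between ZT0 and ZT12, against 4.44% of all tested genes, and 3 were higher at ZT12, against 2.85%.

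Insulin output genes, mainly lipogenic enzymes and their regulators, had 0 of 10 rhythmic, against 15.2% of all tested genes, and 1 past the F-test (10%, against 7.65%). The pyruvate kinase gene Pklr alone passed the limma F-test (adjusted p = 0.0287) and fell from 59.65 rpbp at ZT0 to 6.55 at ZT12 (limma adjusted p = 0.0176). The median ZT0 minus ZT12 difference was 1.30 over the insulin output list and -1.26 over the fasting output list, against -0.03 over all tested genes; the difference between the lists was not tested. These counts describe lists chosen with earlier results of the data known.

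**Figure D5:**
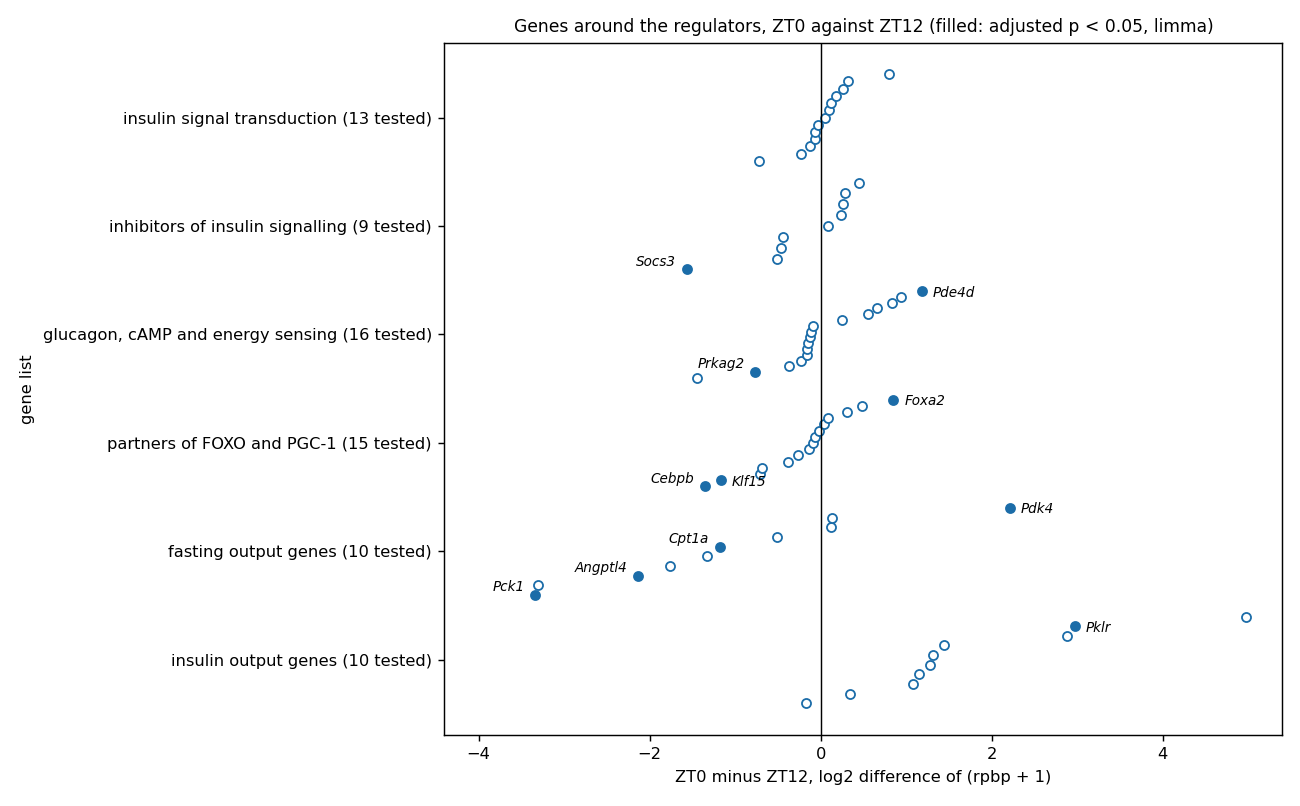
ZT0 minus ZT12 difference of log2(rpbp + 1) (x axis) for the tested genes of the 6 pathway lists (y axis, the number tested in brackets, genes of a list spread vertically by value), with filled circles for limma adjusted p-values under 0.05. The filled circles named are the 11 genes that differed, 7 of them left of 0 and so higher at ZT12.

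Signal is not assigned to a strand, so genes that overlap share it. AK141842, which overlaps the last 481 bp of Irs1, read 2.5 to 5.6 rpbp, below the 8.8 rpbp that was the lowest value of Irs1. PGC-1v spans the Ppargc1a gene over 96208 bp and gave nearly the same values, since both rows count the same reads. Thop1, 1774 bp from Creb3l3, read 0.9 to 2.5 rpbp. Next to Foxo3a, AK008417 lies 309 bp away and read 4.5 to 13.2 rpbp, with its highest value also in ZT12 replicate 1.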

How the data were processed

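Nascent RNA was measured in 12 mouse liver libraries (6 time points, 2 replicates), grouped by the time and replicate given in the sample labels. The authors called bases with CASAVA 1.7, used TopHat to place the reads on mm9, discarded those that mapped to several places and merged lanes. The deposited values are a signal: the coverage of the merged exons of a gene symbol in reads per base pair (rpbp), not split by strand, which the authors brought to an equal read number per library and rounded to 1 decimal. Read counts per gene were not used here, so the number of reads behind a single value is unknown, and 2 replicates limit precision. The paper lists the uniquely mapped reads of each library, with more in those of 2 lanes. The authors' own rhythm statistics (F24, phase and p-value columns) were not used. The table held 27919 blank lines, which were dropped.

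The test set was the symbols that exceeded 6 rpbp in 1 or more libraries. F24 was computed on linear values, with a one-sided p from 100000 permutations; following the study's methods, the rhythmic call needed p under 0.05 before adjustment, F24 above 0.45 and a ratio of highest to lowest value above 1.5, and a strong rhythm F24 above 0.6 and a ratio above 1.75. Single series were tested over all 720 orders. Differences between time points were tested with limma 3.58.1 in R 4.3.3 (moderated F-tests and contrasts on log2(rpbp + 1), whose fold changes understate those of low genes), Benjamini-Hochberg adjusted over all tested genes. Intervals are 95% intervals from the same fit. The procedures were tested on simulated data built from the 6284 tested genes: for a 6-point rhythm, the rhythmic call found 80% of genes given a 2-fold and 96% of those given a 4-fold peak-to-trough change, the limma F-test found 17% and 75%, and 3.96% of unchanged genes were called rhythmic. The simulated noise was drawn separately for each gene and library, without shifts shared by the genes of a library. These rates may therefore not hold in the real libraries. Python 3.11.15, numpy 2.4.6 and pandas 2.3.3 were used otherwise.

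Replicate numbers are shared by the time points. Of 15 correlations of replicate differences between time points, 5 exceeded 0.1 (range -0.117 to 0.320), which does not settle whether replicate numbers pair the libraries. No block was used in the main tests, and a replicate block was run as an alternative. Positions come from the table (start plus 1), and strand, exons and 250-base windows from GENCODE M1 on NCBIM37, the same build. The genes named are the 9 chosen regulators, pathway genes called rhythmic or with a limma F-test adjusted p under 0.05, the 3 genes most like each regulator so called, and neighbours within 5 kb. G6pc is also named, beside Pck1, and Klf15 for its ZT0 to ZT12 difference. The members and lists were chosen with earlier results of these data known. The alternatives were pseudocounts of 0.1 and 4, filters at 3 and 12 rpbp, on the mean, or none, F24 on log2 values, equal library medians, removal of an exon GC trend, ratios of time-point means, adjusted p, limma's cosine test, lanes or replicates as a block, each library or series left out and, added after seeing the data, Foxo3a counted as Foxo3 and each library left out of the counts at ZT12.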

Additional observations from a re-analysis of the deposited data

How the results depend on the processing

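The count of 3 rhythmic genes fell to 0 with an adjusted permutation p, to 0 with limma's adjusted test of the cosine terms (3 unadjusted) and to 0 in the replicate 2 series alone, while the replicate 1 series alone gave 2. With 1 library left out, its lowest value was 1 (ZT4 replicate 2 absent) and its highest 4 (ZT8 replicate 2 absent). The limma F-test count of 2 was 1 with a pseudocount of 0.1, with the 3 rpbp filter and with no filter, and ranged from 0 to 2 with 1 library left out. The 1-lane count of 1 ranged from 0 to 1. The ZT0 to ZT12 count of 2 was 1 with a pseudocount of 4, with the 12 rpbp filter (which leaves Ppargc1b untested), with no filter and with equal medians, and ranged from 0 to 2. No member was called between ZT4 and ZT16 or between ZT8 and ZT20 in any of 20 alternatives each. No value changed sign. With 1 library left out, the count of 6 members highest at ZT12 ranged from 4 to 6 and the median ZT0 to ZT12 difference of the 8 from -1.37 to -0.48, the 4 and the -0.48 without ZT12 replicate 1. These values include Ppargc1a, which passed the filter only through ZT12 replicate 1. The causes were not tested beyond the libraries left out. With the replicate block, the limma cosine test called 0 members (2 unadjusted) and the limma tests of time points kept the counts 2 (6 time points), 1 (1 lane), 2 (ZT0 and ZT12), 0 and 0. Over all tested genes, the calls were 955 in the main analysis, 44 with adjusted p, 163 with limma's cosine test and 115 with the replicate block, and 481 for the limma F-test, 133 without a filter. Exon GC content was known for 79.8% of the tested genes, so the GC alternative is void as a check over all genes; the others had no GENCODE match. All 8 members had a value, and with the trend removed Foxo1, Ppargc1b and Creb3l3 met the rhythmic limits and Insr did not. Rescaling to equal medians shifted ZT16 replicate 2 by 0.23 on the log2 scale.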
